A study of Mus musculus with 29 samples.

Results

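The constitutive proteasome genes were taken as the rows of the mouse heart count table whose symbol is Psma, Psmb, Psmc or Psmd followed by a number, leaving out the immunoproteasome genes Psmb8, Psmb9 and Psmb10. That rule gave 36 of the 20411 genes in the table. By structure they fall into 7 alpha-ring and 4 structural beta-ring genes of the 20S core, its 3 catalytic beta subunits, the 6 ATPases, 3 other base subunits and 8 lid subunits of the 19S particle, 3 assembly chaperones of the 19S base, and 2 tissue-specific 20S subunits. The name "constitutive subunit" thus does not cover all 36: Psmd5, Psmd9 and Psmd10 are assembly factors that leave the finished particle, and Psma8 and Psmb11 belong mainly to testis and thymus.

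The libraries came from hearts of wild-type BALB/c mice, 1 animal each. Every mouse received an intravenous adeno-associated virus (AAV) whose Tbg promoter is active in hepatocytes, so the transgene was aimed at the liver and not at the organ sequenced. C26_REVERBa mice (10 libraries) received the vector for the nuclear receptor REV-ERBα and, 10 days later, C26 colon carcinoma cells under the skin. C26_GFP mice (10 libraries) received the GFP vector and C26 cells, PBS_REVERBa mice (5 libraries) the REV-ERBα vector and a PBS injection, and PBS_GFP mice (4 libraries) the GFP vector and PBS. C26 tumours are a standard model of cachexia, the wasting of muscle and fat in cancer. Counts per library ran from 3376113 to 7619837 (median 6532617.5) in C26_REVERBa, from 5684452 to 16853646 (median 7523038) in C26_GFP, from 3207497 to 5355029 (median 4194580) in PBS_REVERBa and from 3467940 to 14740569 (median 6990109) in PBS_GFP. Of the 5 libraries above 10000000 counts, 3 were C26_GFP and 2 were PBS_GFP. The heart label held, with cardiomyocyte markers summing to a median of 46263 CPM (counts scaled to a common library size) in C26_REVERBa, 40162 in C26_GFP, 45282 in PBS_REVERBa and 44169 in PBS_GFP. In 8 libraries atrial markers averaged above 5 on the log2 CPM scale: 3 C26_REVERBa, 3 C26_GFP, 1 PBS_REVERBa and 1 PBS_GFP.

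The 26S proteasome degrades proteins tagged with ubiquitin. Its 20S core is a barrel of stacked alpha and beta rings with the protease sites inside, and the 19S particle recognises the ubiquitin chain, removes it, and unfolds and feeds in the substrate with its ring of ATPases. In muscle the ubiquitin proteasome system is known for breaking down contractile proteins during wasting. When proteasome activity is short, the transcription factor NFE2L1 is released from the endoplasmic reticulum and raises proteasome genes through antioxidant response elements in their promoters.

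Promoters are shown for Psmd2, Psmc1, Psma7, Psmd4 and Psmd8, whose levels differed in tumour-bearing hearts, and for Psmd9, which differed with the vector. Those of the catalytic subunits Psmb5 and Psmb6 are also shown. Psmb5 and Psmb6 passed in no comparison of the main fit, and each holds a motif described next. Psmd7, which also differed in tumour-bearing hearts, is not shown. RefSeq sequences of build GRCm38.p6, the build of the count table's mm10 coordinates, were available for 29 of the 36 genes, 2 of them with a second start. Each of the first 5 is the 250 bases before the start, and each of the last 3 is the 60 bases before it. All are read 5′ to 3′ along the gene, and capitals mark the motifs described next. The Psmc1 window ends at a RefSeq start upstream of the gene start in the count table.
Psmd2 (chr16:20651402-20651651, plus strand): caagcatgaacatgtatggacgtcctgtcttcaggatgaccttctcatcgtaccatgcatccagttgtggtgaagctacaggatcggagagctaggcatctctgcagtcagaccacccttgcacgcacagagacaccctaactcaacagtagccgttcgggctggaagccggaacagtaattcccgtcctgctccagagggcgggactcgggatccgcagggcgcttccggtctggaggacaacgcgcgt
Psmc1 (chr12:100109952-100110201, plus strand): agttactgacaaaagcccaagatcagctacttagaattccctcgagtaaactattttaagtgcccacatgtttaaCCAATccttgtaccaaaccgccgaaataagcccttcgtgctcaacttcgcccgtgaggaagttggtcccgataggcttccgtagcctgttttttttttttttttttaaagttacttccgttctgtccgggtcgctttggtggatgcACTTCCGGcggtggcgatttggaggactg
Psma7 (chr2:180042465-180042714, minus strand): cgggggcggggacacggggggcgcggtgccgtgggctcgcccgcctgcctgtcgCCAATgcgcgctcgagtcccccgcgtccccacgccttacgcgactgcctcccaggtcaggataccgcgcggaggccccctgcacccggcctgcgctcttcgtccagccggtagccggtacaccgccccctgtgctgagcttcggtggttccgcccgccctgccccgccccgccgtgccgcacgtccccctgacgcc
Psmd4 (chr3:95042615-95042864, minus strand): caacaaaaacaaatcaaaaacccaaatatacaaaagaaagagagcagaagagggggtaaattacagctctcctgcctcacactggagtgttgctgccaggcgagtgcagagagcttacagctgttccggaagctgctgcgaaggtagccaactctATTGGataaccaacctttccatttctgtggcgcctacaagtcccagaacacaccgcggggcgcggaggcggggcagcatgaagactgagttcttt
Psmd8 (chr7:29180674-29180923, minus strand): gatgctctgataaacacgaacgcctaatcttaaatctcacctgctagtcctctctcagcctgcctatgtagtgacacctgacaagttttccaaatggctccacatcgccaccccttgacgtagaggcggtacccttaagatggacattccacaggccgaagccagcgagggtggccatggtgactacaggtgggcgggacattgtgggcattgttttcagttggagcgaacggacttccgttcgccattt
Psmd9 (chr5:123228130-123228189, plus strand): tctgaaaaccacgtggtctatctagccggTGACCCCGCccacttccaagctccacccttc
Psmb5 (chr14:54617996-54618055, minus strand): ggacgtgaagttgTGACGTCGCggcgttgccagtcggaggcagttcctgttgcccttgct
Psmb6 (chr11:70525297-70525356, plus strand): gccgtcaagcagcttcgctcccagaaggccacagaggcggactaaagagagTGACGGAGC

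Motifs were searched in the 250 bases, on both strands. The antioxidant response element core TGACNNNGC was found in 5 of 29 members (Psmb5, Psmb6, Psmc6, Psmd12 and Psmd9), or 17.2%, against 11.5% of 27025 genes with such a window. The CCAAT box was found in 12 of 29 members (41.4%), against 37.5% of all. The ETS site CCGGAAGT was found in 4 of 29 (Psmc1, Psmc2, Psmd12 and Psmd6), or 13.8%, against 3.23% of all. None of the motifs overlapped another in the windows printed. Psmd2 and Psmd8, printed above, had none of these 3 motifs. A match here is a run of letters and not a shown binding site, and a missing match says nothing of the factor.

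Transcript levels per counted length set the members apart. Averaged over the 29 libraries, Psmd7, a lid subunit that pairs with the deubiquitinase Psmd14, was highest at 80.9 CPM per kilobase. Psmd3, another lid subunit, followed at 72.8, the alpha subunit Psma6 at 59.6 and the catalytic subunit Psmb5 at 57.1. The lowest tested member was the alpha subunit Psma5 at 4.62 CPM per kilobase, although each core holds equal numbers of each alpha subunit. In all 33 pairs of neighbours in this order the ranges over libraries overlapped, so the order of adjacent members does not stand beyond the spread. The 3 assembly chaperones were also near the low end, Psmd5 at 7.40, Psmd9 at 6.83 and Psmd10 at 6.31. The alpha subunit Psma3, at 6.55, lay between Psmd9 and Psmd10. Psma8 averaged 0.317 CPM per kilobase, with 0 to 8 counts per library and 109 in all, and Psmb11 averaged 0.00533, with 0 to 2 counts and 6 in all. Those 2 genes did not pass the filter on low counts, and the other 34 were tested.

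**Figure D1:**
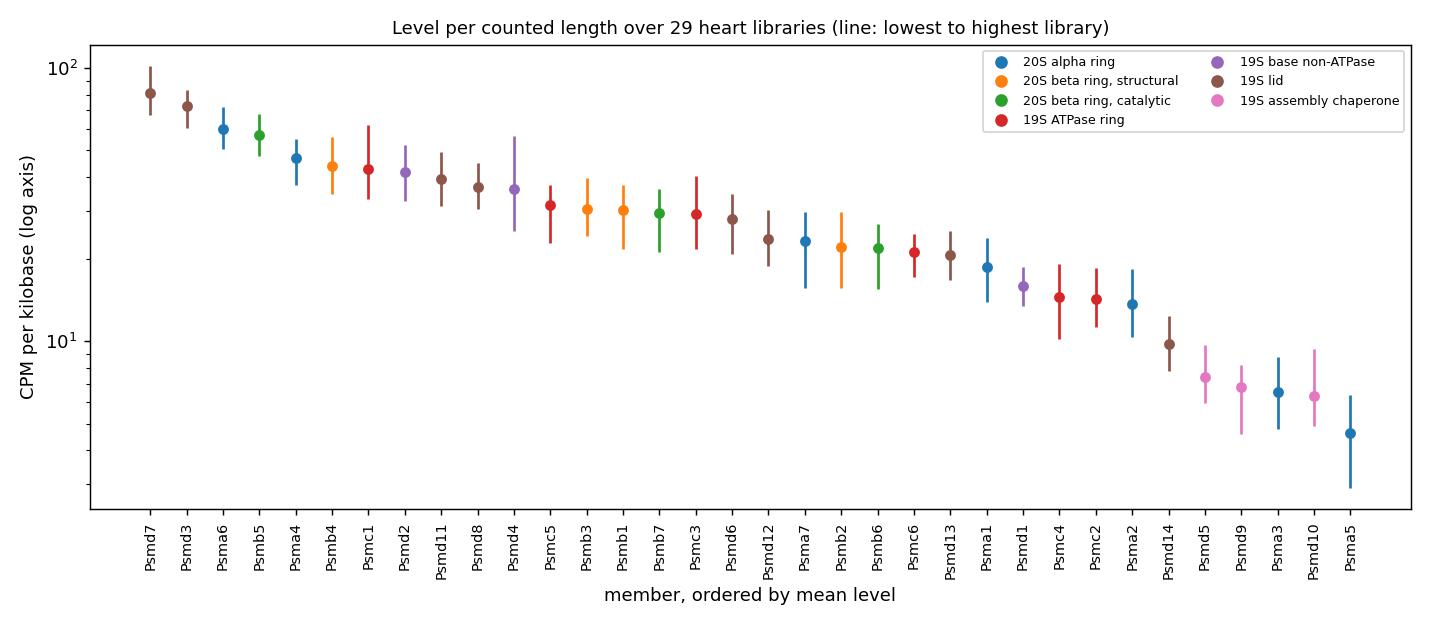
Mean level of each tested member over 29 heart libraries, in CPM per kilobase on a log axis, with a line for the lowest to the highest library and colour for structural class. Psmd7 leads at 80.9 and Psma5 is lowest at 4.62, and adjacent members overlap.

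Together the members made up 0.130% to 0.150% of scaled counts in C26_REVERBa, 0.136% to 0.168% in C26_GFP, 0.132% to 0.143% in PBS_REVERBa and 0.132% to 0.150% in PBS_GFP, so all 4 groups overlapped. Within groups, members were also compared in pairs, with no value for other genes to set beside them. The median correlation of their deviations from the group means on the log2 CPM scale was 0.213 over 561 pairs of members and 29 libraries, with 80.0% of pairs above 0. Psma6 had the highest median correlation with the other members (0.358), and Psmd5 the lowest (-0.0755). These points share their libraries and depth, and the values are a description.

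The difference that goes with the tumour was read between the groups given the GFP vector. In C26_GFP hearts, 5 proteasome genes were higher than in PBS_GFP hearts and 1 was lower. Of the 5, Psmd2 and Psmd4 of the base, the ATPase Psmc1 and Psmd7 of the lid code for 19S proteins, and the other is the alpha subunit Psma7. Psmd8, also of the lid, was the lower one. The 3 catalytic subunits and the structural beta subunits did not pass the test. The 6 of 34 members called (17.6%) compare with 28.2% of the 12928 genes tested, the 5 higher with 14.2% and the 1 lower with 14.0%, so the share of members called lay below the background of this comparison. Over the 34, the median log2 fold change was -0.03 (14 above 0 and 20 below), against a median of -2.85e-05 over all genes tested. Calls used edgeR's quasi-likelihood test with a Benjamini-Hochberg adjusted p under 0.05 over all genes. In bulk tissue, fewer cells of a type and less RNA per cell cannot be told apart.

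Psmd2 builds the base scaffold on which ubiquitin shuttle receptors dock. It had 120 to 155 CPM (median 133) in C26_GFP hearts, against 121, 100.4, 102 and 96.2 CPM in PBS_GFP hearts. Only the lowest C26_GFP library reached down to the highest PBS_GFP one. The log2 fold change was 0.37 ± 0.07 (SE), adjusted p = 0.000386. Psmc1, an ATPase of the ring that unfolds substrates, had 58.4 to 92.7 CPM (median 71.6) in C26_GFP hearts, against 59.9, 49.7, 50.2 and 54.4 CPM in PBS_GFP hearts. The groups overlapped by a single PBS_GFP library. Its log2 fold change was 0.47 ± 0.10, adjusted p = 0.000928. Psma7, an alpha-ring subunit, had 21.8 to 28.4 CPM (median 25.1) in C26_GFP hearts, against 20.8, 18.6, 14.9 and 19.5 CPM in PBS_GFP hearts. Every C26_GFP library was above every PBS_GFP one, and the log2 fold change was 0.43 ± 0.10, adjusted p = 0.00134. After thinning every library to the smallest total, in a single random draw of its counts, the adjusted p of Psma7 was 0.192.

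Psmd4, an intrinsic ubiquitin receptor of the particle, had the largest change of the members. It had 43.7 to 75.2 CPM (median 54.7) in C26_GFP hearts, against 41.3, 35.3, 33.9 and 47.1 CPM in PBS_GFP hearts, and the groups overlapped. The log2 fold change was 0.53 ± 0.13, adjusted p = 0.00222. Without the 5 libraries above 10000000 counts it was 0.50, adjusted p = 0.0656. Psmd7 had 124 to 163 CPM (median 139) in C26_GFP hearts, against 121, 119, 111 and 122 CPM in PBS_GFP hearts, with no overlap. Its log2 fold change was 0.25 ± 0.08, adjusted p = 0.0214, and without PBS_GFP replicate 3 the adjusted p was 0.0770. The Psmd7 call also ended without the libraries above 10000000 counts (adjusted p = 0.116) and after thinning (adjusted p = 0.151).

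Psmd8 is a lid subunit whose placement completes lid assembly in yeast. It had 47.9 to 58.2 CPM (median 52.5) in C26_GFP hearts, against 63.4, 55.8, 68.3 and 61.9 CPM in PBS_GFP hearts. The C26_GFP libraries lay low and overlapped with 1 PBS_GFP library. The log2 fold change was -0.24 ± 0.06, adjusted p = 0.00709, and after thinning -0.38, adjusted p = 0.0106. Psmd2, Psmc1, Psma7, Psmd4, Psmd7 and Psmd8 overlap no other annotated gene in GENCODE M21, whereas 13 of the 36 members do.

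Of the catalytic subunits, Psmb5 carries the chymotrypsin-like site, Psmb6 the caspase-like site and Psmb7 the trypsin-like site. Psmb5 had 36.3 to 51.7 CPM (median 41.6) in C26_GFP hearts, against 52.0, 45.3, 41.9 and 47.7 CPM in PBS_GFP hearts, and the groups overlapped. Its log2 fold change was -0.16 (95% interval -0.32 to -0.01), adjusted p = 0.109. Without C26_GFP replicate 7 the adjusted p was 0.0349 and with limma voom 0.0223, whereas after thinning the sign turned (0.0062, adjusted p = 0.981). Psmb6 had 16.1 to 25.0 CPM (median 22.2) in C26_GFP hearts, against 25.2, 22.8, 22.7 and 24.4 CPM in PBS_GFP hearts, with overlap. Its log2 fold change was -0.13 (interval -0.34 to 0.07), adjusted p = 0.337, and after thinning 0.13, adjusted p = 0.644. Psmb7 had 20.6 to 32.0 CPM (median 28.2) in C26_GFP hearts, against 35.1, 25.0, 32.7 and 27.3 CPM in PBS_GFP hearts, with overlap. Its log2 fold change was -0.10 (interval -0.30 to 0.10), adjusted p = 0.469, after thinning -0.34, adjusted p = 0.0892, and without PBS_GFP replicate 1 0.0044, adjusted p = 0.986. Annotated pseudogenes exist for Psmb5, Psmb6 and Psmb7, and Nek6 lies on the strand opposite Psmb7, so reads of these genes could be split by counting.

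By class, 1 of 7 alpha-ring genes rose and none of the 4 structural or 3 catalytic beta-ring genes passed, and 12 of the 14 core genes had a log2 fold change below 0 (median -0.11). In the ATPase ring 1 of 6 rose, of the other base subunits 2 of 3 rose, and in the lid 1 of 8 rose and 1 fell. The 17 genes of the 19S particle had a median of 0.14, with 11 above 0. Of all 12928 genes tested, 6463 were above 0 and 6465 below, and the classes were not tested as sets. No assembly chaperone passed, and Psmd9 had a log2 fold change of -0.20, adjusted p = 0.0621. Members just short of the threshold were Psmd11 (0.22, adjusted p = 0.0529), Psmc5 (0.20, adjusted p = 0.0533) and Psmc3 (0.22, adjusted p = 0.0674). Psmd11 is a lid subunit and Psmc5 and Psmc3 are ATPases. In 4 of 34 members (11.8%; Psma7, Psmc6, Psmd11 and Psmd7) the libraries of the 2 groups did not overlap at all, against 12.0% of all genes tested. Psmc6 was lower in C26_GFP (log2 fold change -0.17, adjusted p = 0.125), and Psma7, Psmd11 and Psmd7 were higher.

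**Figure D2:**
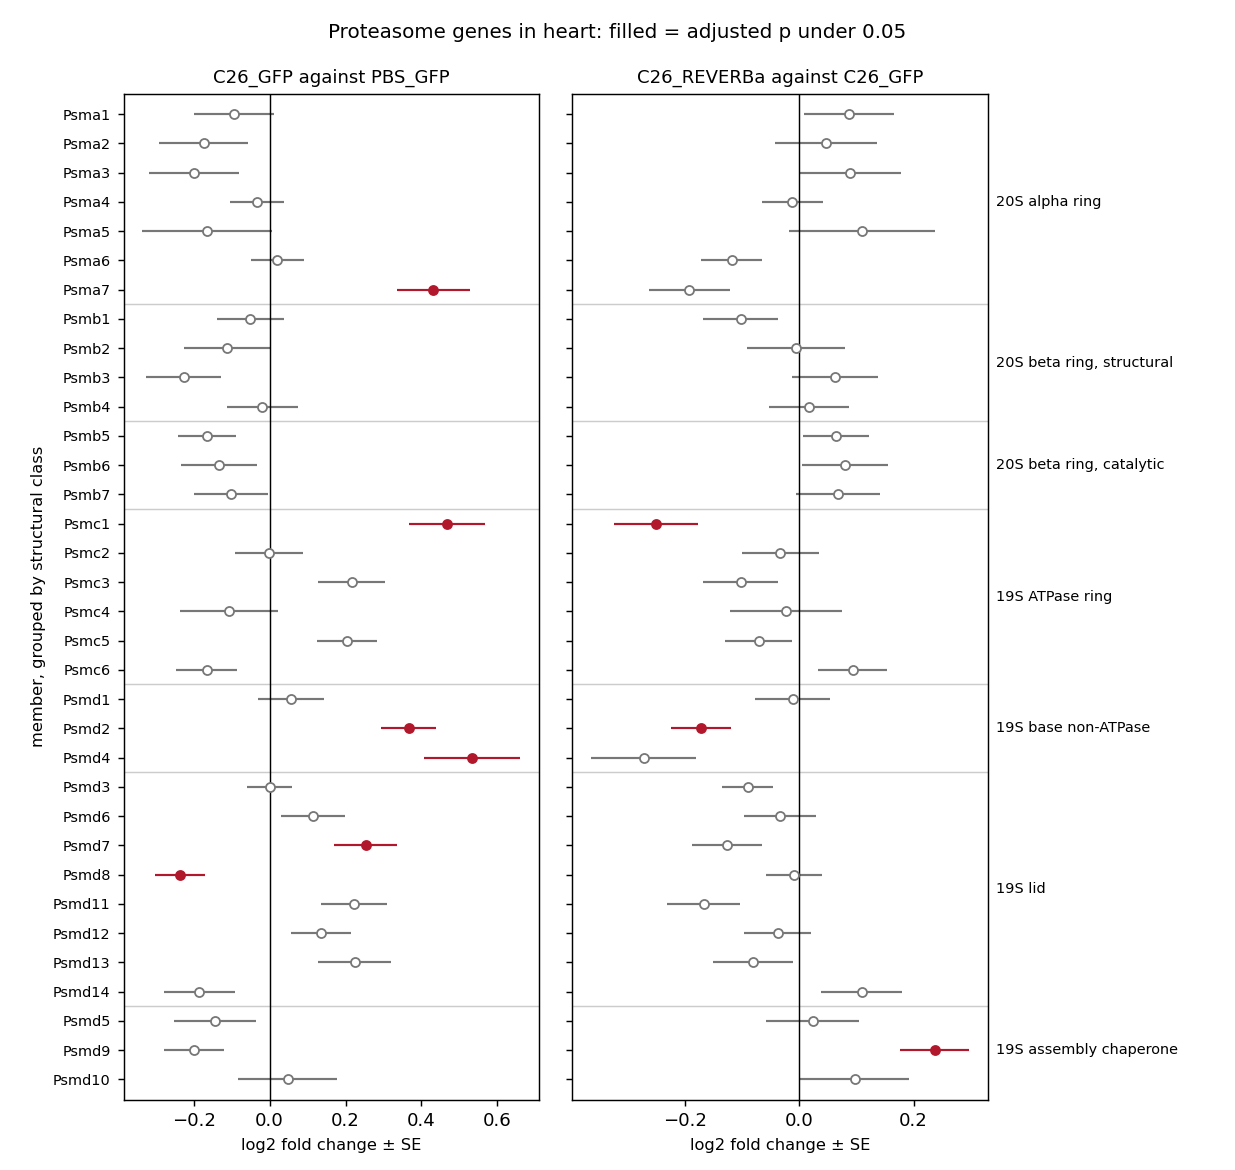
Log2 fold change with SE of the 34 tested members, by structural class, for C26_GFP against PBS_GFP (left) and C26_REVERBa against C26_GFP (right); filled points have an adjusted p under 0.05. In the left panel 6 members are filled, Psmd4 reaching 0.53 and Psmd8 lying at -0.24, and in the right panel 3 are filled.

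The summed 20S over summed 19S CPM of a library does not depend on the library's scaling. The ratio was 0.351 to 0.409 (median 0.374) in C26_GFP, against 0.411, 0.441, 0.444 and 0.445 in PBS_GFP. Every C26_GFP library lay below every PBS_GFP one. The summed 20S level was 342 to 426 CPM (median 395) in C26_GFP and 390 to 447 (median 394) in PBS_GFP. The highest of these PBS_GFP sums, in replicate 1, lay apart from the next at 398. The summed 19S level was 964 to 1210 CPM (median 1013) in C26_GFP and 887 to 1006 (median 923) in PBS_GFP. The difference of group means on the log2 scale was -0.22 (C26_GFP minus PBS_GFP), and no test was made because the measure was chosen with the members' values known. On CPM per kilobase, the difference was also -0.22 but the groups overlapped. With each member given the same weight it was -0.19, again with overlap. In C26_REVERBa the ratio was 0.368 to 0.460 (median 0.397), and the 5 PBS_REVERBa libraries ran from 0.396 to 0.429 (median 0.422).

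**Figure D3:**
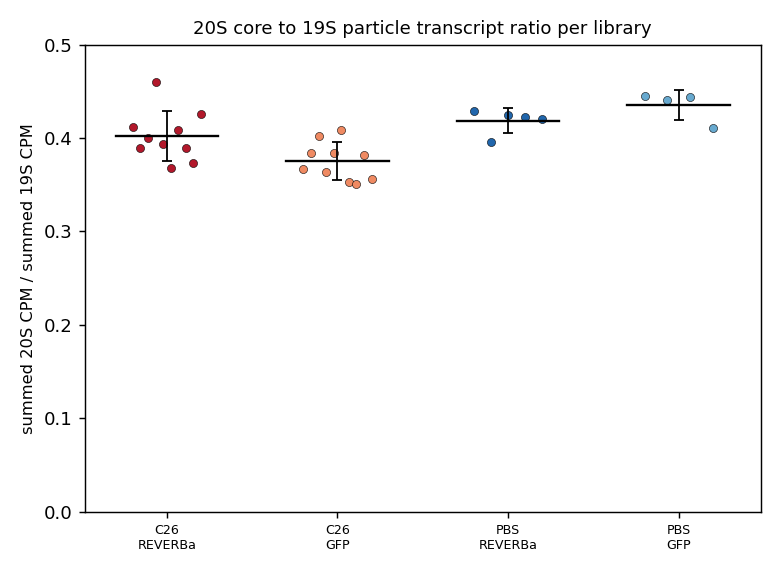
Summed CPM of the 14 core genes over that of the 17 genes of the 19S particle in each heart library, by group, with mean and SD. The C26_GFP libraries run from 0.351 to 0.409 and the PBS_GFP libraries from 0.411 to 0.445.

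Genes around the proteasome were read from lists of pathway genes. In C26_GFP against PBS_GFP, 0 of the 2 subunits that the symbol rule misses, Adrm1 and Sem1, passed. Of the immunoproteasome subunits, Psmb10 fell (log2 fold change -0.43 ± 0.13, adjusted p = 0.0115), while Psmb8 was at 0.08 and Psmb9 at 0.05 (adjusted p = 0.763 and 0.916). Among 5 activators and inhibitors, Psme4, which codes for the activator PA200, fell by 0.28 (adjusted p = 0.00874). Among 5 chaperones of 20S assembly, Psmg2 fell by 0.38 (adjusted p = 0.00638). The shuttle receptor Ubqln2 rose by 0.39 (adjusted p = 2.92e-05), alone among 12 shuttle and bound factors. Nfe2l1 itself was at 0.01 ± 0.06 (adjusted p = 0.887), and of the 10 genes of its pathway Maff rose by 0.81 (adjusted p = 0.00283) and Ngly1, the deglycosylase that processes NFE2L1, by 0.27 (adjusted p = 0.0133).

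Upstream of the proteasome, the ubiquitin gene Ubb rose by 0.65 (adjusted p = 0.000337), 1 of 6 in its list, and Nploc4, a cofactor of the p97 segregase, rose by 0.28 (adjusted p = 0.00347), 1 of 5. Of 22 ubiquitin-conjugating enzymes tested, 1 rose and 5 fell, including Ube2a at -0.44 and Ube2n at -0.37. None of 9 COP9 signalosome genes passed, which is a complex built on the same plan as the lid. Of 10 ligases linked to muscle atrophy, 5 rose and 2 fell. Fbxo31 rose by 1.15 (adjusted p = 1.18e-05) and Cblb by 0.73 (adjusted p = 0.00305), while Mdm2 was at -0.30 and Asb2 at -0.63. Transcripts of cell-type markers differed as well. Of 7 macrophage markers 3 rose, and the summed level of the 7 was 239 to 356 CPM in C26_GFP, against 193 to 223 in PBS_GFP. Of 8 cardiomyocyte markers 1 rose and 4 fell, and their sum was 33377 to 44660 CPM in C26_GFP, against 42407 to 47721 in PBS_GFP. Of 5 fibroblast markers 2 rose, Dcn by 0.67 and Pdgfra by 0.48, with sums of 918 to 1354 CPM in C26_GFP and 809 to 998 CPM in PBS_GFP. Of 5 endothelial markers Tek rose by 0.25 and Kdr fell by 0.56, and of 5 smooth muscle and pericyte markers Acta2 fell by 1.98. The 1 lymphocyte marker tested, Cd3e, rose by 1.97. Its median was 1.72 CPM in C26_GFP, where the highest library had 14.1 CPM, and 1.01 CPM in PBS_GFP. Of 4 hepatocyte markers tested Alb and Apob fell by 2.52 and 2.56. The hepatocyte sums were 0.645 to 24.0 CPM in C26_GFP and 0.901 to 89.4 CPM in PBS_GFP, with medians of 1.46 and 1.73 CPM. Of the PBS_GFP libraries only replicate 2 was high, and the others had 0.901, 1.43 and 2.04 CPM. Median Alb was 0.535 CPM in C26_GFP and 0.747 CPM in PBS_GFP, and median Apob was 0.318 and 0.0346 CPM. No atrial, neutrophil, erythroid or adipocyte marker passed. The part of these cell types in the proteasome results was not tested.

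The second comparison asked how hepatocyte REV-ERBα altered hearts of tumour-bearing mice. It shares the C26_GFP libraries with the first, so the values of both stand side by side without a test of likeness. In C26_REVERBa hearts, Psmd9 was higher than in C26_GFP hearts, and Psmc1 and Psmd2 were lower. These 3 of 34 members (8.82%) compare with 7.20% of all genes tested, the 1 higher with 3.75% and the 2 lower with 3.45%. The median log2 fold change of the 34 was -0.01, against 0.00 over all genes. The libraries of the 2 groups overlapped for all 34 members, as for all but 3 of the 12928 genes.

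Psmd9, a chaperone that binds the ATPase Psmc3 during base assembly, had 17.1 to 19.8 CPM (median 18.5) in C26_REVERBa hearts and 11.9 to 17.3 CPM (median 16.2) in C26_GFP hearts. The C26_REVERBa libraries lay higher, and only the highest C26_GFP library reached above the lowest C26_REVERBa one. The log2 fold change was 0.24 ± 0.06, adjusted p = 0.0215, and the gene passed without any 1 of the 20 libraries of the 2 groups. The adjusted p was 0.0504 without the libraries above 10000000 counts, 0.0699 without those with high atrial markers and 0.0915 after thinning, where the log2 fold change was 0.38. Psmd9 overlaps Gm26745 on the opposite strand, and no source used here states whether counting used strand, so reads of both could mix. The capitals in the Psmd9 sequence above mark its single TGACNNNGC match.

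Psmc1 had 54.1 to 72.7 CPM (median 61.6) in C26_REVERBa hearts and 58.4 to 92.7 CPM (median 71.6) in C26_GFP hearts. The groups overlapped between 58.4 and 72.7 CPM, and only C26_GFP libraries lay above. The log2 fold change was -0.25 ± 0.07, adjusted p = 0.0375. Leaving out 1 library ended the call for 10 of 20 libraries: C26_REVERBa replicates 1, 4, 5, 7, 8 and 10 and C26_GFP replicates 2, 4, 7 and 10. Over the 20 omissions the adjusted p ran from 0.00838 to 0.0904. Psmd2 had 110.1 to 134 CPM (median 119) in C26_REVERBa hearts and 120 to 155 CPM (median 133) in C26_GFP hearts, with overlap. Its log2 fold change was -0.17 ± 0.05, adjusted p = 0.0454. The call ended for 12 of 20 libraries: C26_REVERBa replicates 1, 3, 4, 5, 7, 8 and 10 and C26_GFP replicates 4, 5, 7, 8 and 10. The adjusted p of Psmd2 ran from 0.0212 to 0.105. For Psmc1 the call also ended when only the compared groups were fitted (adjusted p = 0.0733) and after thinning (0.124). For Psmd2 it also ended in those settings (adjusted p = 0.0738 and 0.0951), with upper quartile scaling (0.0622), with depth class as a covariate (0.0792), without the libraries above 10000000 counts (0.0630) and without those with high atrial markers (0.0708).

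**Figure D4:**
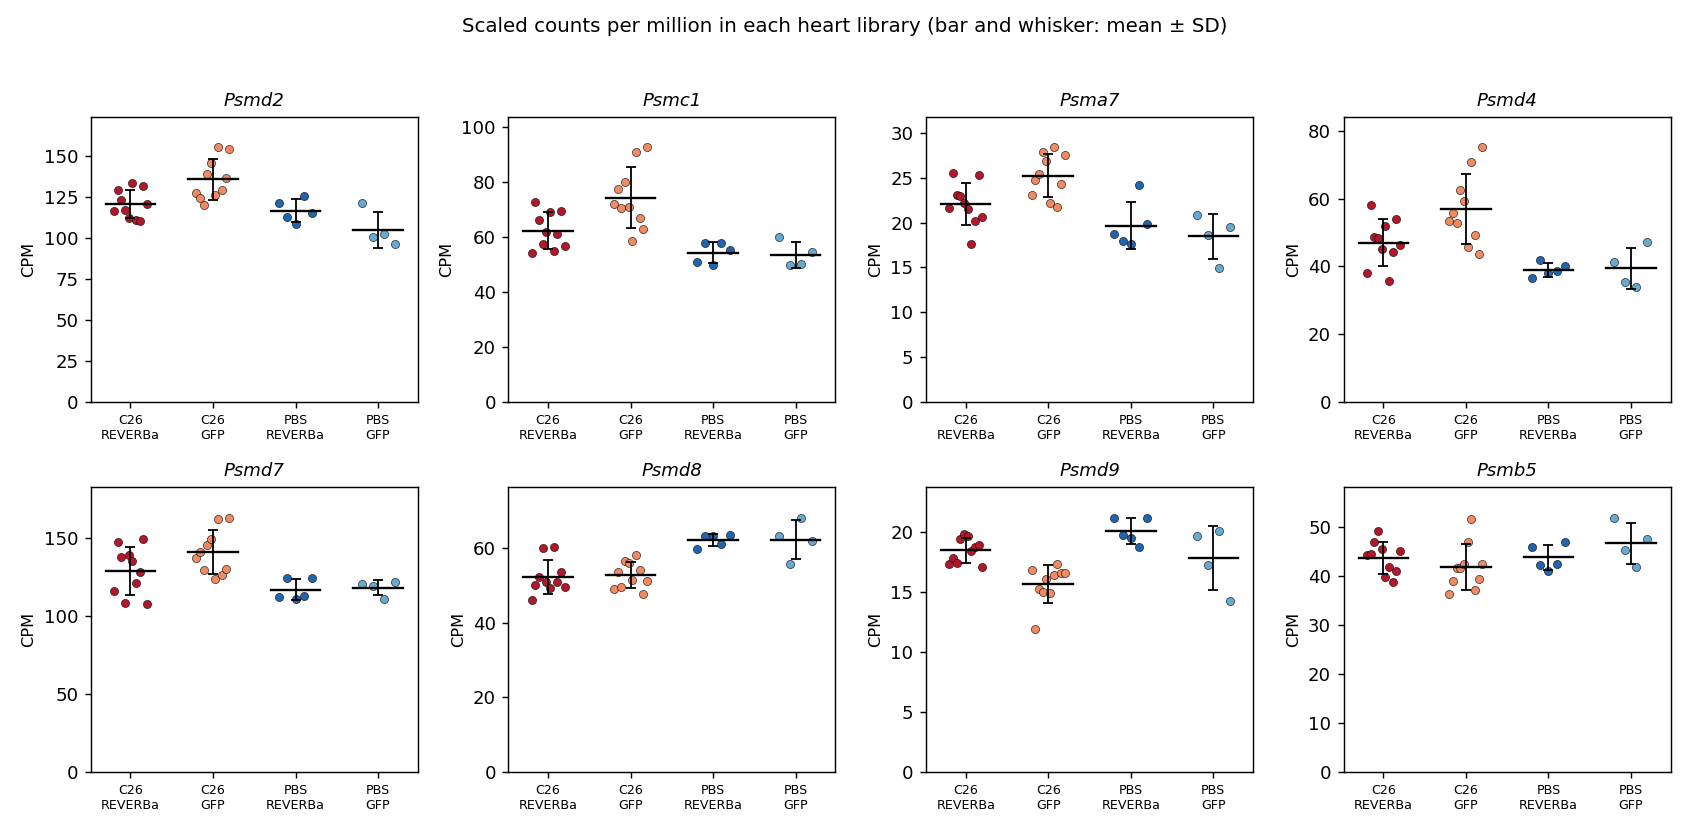
CPM of 8 members in every heart library, by group, with the mean and SD as bar and whisker; the vertical axes start at 0. Psmd2 and Psmc1 lie highest in C26_GFP (means of 136 and 74.3 CPM), while Psmd9 lies lowest there (15.7 CPM) and Psmd8 is lower in both tumour groups.

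The other 2 members that led the first comparison did not pass here. Psmd4 was at -0.27 ± 0.09 (adjusted p = 0.0647) and Psma7 at -0.19 ± 0.07 (adjusted p = 0.0870). Both passed when C26_REVERBa replicate 2 or 9 or C26_GFP replicate 6 was left out, and Psmd4 also without C26_GFP replicate 9. With limma voom both passed (adjusted p = 0.0245 for Psmd4 and 0.0295 for Psma7), and with DESeq2 Psmd4 did (adjusted p = 0.0476). Of 34 alternatives, 27 left Psmd4 and 29 left Psma7 not passed. The adjusted p reached 0.156 for Psmd4 and 0.799 for Psma7. The log2 fold change ran from -0.36 to -0.22 for Psmd4 and from -0.22 to -0.08 for Psma7. Of the 17 genes of the 19S particle, 15 had a log2 fold change below 0 (median -0.07), and of the 14 core genes 9 had one above 0 (median 0.06). Of all 12928 genes tested, 6346 were below 0 and 6582 above. The classes were not tested as sets, and the C26_GFP libraries serve both comparisons. The 3 catalytic subunits were at 0.06 (Psmb5), 0.08 (Psmb6) and 0.07 (Psmb7), with intervals of -0.05 to 0.18, -0.07 to 0.23 and -0.08 to 0.22. None of the 3 passed, and after thinning Psmb7 was at 0.26 (adjusted p = 0.172) and Psmb6 at -0.052 (adjusted p = 0.875).

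Around the proteasome, Ubb fell by 0.36 (adjusted p = 0.0229), Ubqln2 by 0.17 (adjusted p = 0.0232) and Maff by 0.66 (adjusted p = 0.0119). Mafk fell by 0.37 (adjusted p = 0.0436), Ube2g2 by 0.24 (adjusted p = 0.0143) and Fbxo31 by 0.45 (adjusted p = 0.0226). Ube2d1 rose by 0.17 (adjusted p = 0.0401). Psmb8, Psmb9 and Psmb10 were at 0.15, 0.12 and 0.20 and did not pass, nor did Nfe2l1 at 0.05. No activator, 20S assembly chaperone, p97 or COP9 gene passed. Of 7 macrophage markers 3 fell, with sums of 210 to 281 CPM in C26_REVERBa and 239 to 356 CPM in C26_GFP. The cardiomyocyte marker Myh6 rose by 0.28 (1 of 8; sums of 35816 to 49283 CPM in C26_REVERBa and 33377 to 44660 CPM in C26_GFP), the fibroblast marker Pdgfra fell by 0.24 (1 of 5) and Acta2 of smooth muscle rose by 1.13 (1 of 5). No marker of the other lists passed, and the part of these cells in the results was not tested.

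The third comparison asked what the REV-ERBα vector was associated with in tumour-free hearts. No member passed, and of the 12928 genes 0 (0%) did. At an unadjusted p under 0.05, 0 members and 530 genes stood out, and DESeq2 and limma voom each called 1 gene and 0 members. The values of the members named above were, as log2 fold changes of PBS_REVERBa against PBS_GFP, 0.15 ± 0.08 for Psmd2, 0.02 ± 0.11 for Psmc1, 0.16 ± 0.09 for Psmd9 and 0.00 ± 0.08 for Psmd8. Psmd2 had 122, 113, 108, 125 and 115 CPM in the PBS_REVERBa libraries, which overlap the PBS_GFP values given before. Psmb5 was at -0.10 (interval -0.28 to 0.08).

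The fourth comparison set tumour-bearing hearts against tumour-free hearts under the REV-ERBα vector. Psmd8 was the 1 member of 34 (2.94%) called, against 7.23% of all genes, with 4.05% higher and 3.19% lower. It had 46.2 to 60.3 CPM (median 51.0) in C26_REVERBa hearts, against 59.8, 63.5, 63.4, 61.3 and 63.6 CPM in PBS_REVERBa hearts. The highest C26_REVERBa libraries reached the lowest PBS_REVERBa value and the rest lay below. The log2 fold change was -0.25 ± 0.06, adjusted p = 0.0133, and after thinning -0.18, adjusted p = 0.390. In the same comparison 3 of 7 macrophage markers rose, with sums of 210 to 281 CPM in C26_REVERBa and 158 to 220 CPM in PBS_REVERBa. The neutrophil marker S100a9 rose by 2.59 (1 of 2 tested), at very low levels. It had 0.279 to 2.56 CPM in C26_REVERBa and 0 to 0.290 CPM in PBS_REVERBa. The fibroblast marker Dcn rose by 0.38 (1 of 5), while Mybpc3 of cardiomyocytes fell by 0.43 (1 of 8) and Kdr of endothelium by 0.56 (1 of 5). The part of these cell types in the Psmd8 result was not tested. Under the GFP vector Psmd8 was at -0.24, from other libraries of both groups. Psmd4 (0.27 ± 0.12, adjusted p = 0.165), Psmc1 (0.20 ± 0.09, adjusted p = 0.196), Psma7 (0.16 ± 0.09, adjusted p = 0.307) and Psmd2 (0.05 ± 0.07, adjusted p = 0.714) did not pass. Of the atrophy ligases Fbxo31 rose by 0.81, Fbxo32 by 0.59 and Asb2 fell by 0.44, and the other pathway lists had no gene that passed.

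The difference between the tumour's association under the REV-ERBα vector and under the GFP vector was tested as an interaction. No member of 34 and 0 of 12928 genes (0%) passed. At an unadjusted p under 0.05, 1357 genes and 1 member did, and DESeq2 and limma voom called 15 and 4 genes and 0 members. The 1 member was Psmd2, with an interaction of -0.32 ± 0.10 on the log2 scale (adjusted p = 0.301). That Psmd2, Psmc1, Psma7, Psmd4 and Psmd7 passed under the GFP vector and not under the REV-ERBα vector is therefore not shown to be a difference between the vectors. For Psmd8 the interaction was -0.01 (interval -0.20 to 0.17).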

How the data were processed

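Raw counts of reads per RefSeq gene were deposited by the authors as a single table; its values are whole numbers, and library totals differ. STAR 2.4.2a, DESeq2 1.24.0 and the build mm10 appear in the submitters' processing notes, with no role stated. Per the labels' protocols, RNA was not selected for poly-adenylation and libraries were stranded. How reads were assigned to genes, whether strand was used, and at what time of day hearts were taken is not stated in those sources. Column names were matched to sample labels, and 1 column of per-sample values that matches no sample was not used. Starts in the table count from 0, so 1 was added.

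Counts were tested with edgeR 4.0.16 in R 4.3.3 (trimmed mean of M values scaling, filterByExpr with a minimum count of 10, glmQLFit and glmQLFTest, one mean per group, 29 libraries of 4 groups). P-values were adjusted by Benjamini-Hochberg over 12928 genes, with a threshold of 0.05. CPM are counts scaled to a common library size, and SE is the absolute log2 fold change over the square root of F. The fit was also run on counts simulated from its own estimates, which cannot show how well the model describes these libraries. Named in full were, among members passing the threshold, those with the 3 smallest p in each direction of the first 2 comparisons (fewer where fewer passed), members passing elsewhere and the catalytic subunits; Psmd4 and Psmd7 were added after their values were seen. The members, the 11 pathway lists and the 11 marker lists were chosen with earlier results of these data known. Alternatives included limma 3.58.1 and DESeq2 1.42.0, other scalings and filters, and leaving out each library. Each library is a separate animal; depth limits the precision of low genes.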

Additional observations from a re-analysis of the deposited data

Results flagged for a closer look

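Single libraries were compared with the rest of their group for the 10 members described in full, the summed 20S and 19S levels and their ratio, which makes 52 groups of values. In 4 of them 1 library lay apart from the others by more than Dixon's 95% limit, and chance alone does so in about 1 in 20 groups. For Psmd9, C26_GFP replicate 2 had 11.9 CPM, and the nearest of the other 9 had 14.9. The summed 20S level of PBS_GFP replicate 1 was 447 CPM, with the nearest at 398. The ratio of summed 20S to summed 19S CPM was 0.396 in PBS_REVERBa replicate 2, with the nearest at 0.421. In PBS_GFP replicate 4 the ratio was 0.411, with the nearest at 0.441.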

How the results depend on the processing

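In C26_GFP against PBS_GFP, 6 members passed. The count was 12 at an adjusted p under 0.1, 12 with limma voom with sample weights, 5 with the replicate block, 4 without the libraries above 10000000 counts, 5 after thinning to the smallest total (Psmd11 among them) and 5 to 9 when 1 library was left out. In C26_REVERBa against C26_GFP, 3 passed. The count was 5 at an adjusted p under 0.1, 5 with limma voom, 1 with the replicate block, 1 with only the compared groups fitted, 1 without the libraries above 10000000 counts, 0 after thinning and 1 with the 8 libraries high in atrial markers left out, an alternative chosen after seeing the data. It was 1 to 6 when 1 library was left out. In C26_REVERBa against PBS_REVERBa the count of 1 became 0 after thinning and was 1 under every other setting run. No member passed in PBS_REVERBa against PBS_GFP or in the interaction under any setting run. Fitting only the compared groups gave no value for the interaction. Same-numbered libraries correlated from -0.346 to 0.216, so the numbers are no sign of paired animals. With the replicate block Psmd7 (adjusted p = 0.0916) did not pass in the first comparison, nor Psmc1 (0.0908) and Psmd2 (0.0904) in the second; it changed no call in the other comparisons.

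Signs turned for members that had not passed. After thinning, the C26_GFP against PBS_GFP log2 fold change was 0.0062 for Psmb5 and 0.13 for Psmb6, and the C26_REVERBa against C26_GFP value of Psmb6 was -0.052. Leaving out 1 library, Psmb7 ran from -0.192 to 0.0044 in C26_GFP against PBS_GFP, with the positive value without PBS_GFP replicate 1. Thinning was a single random draw that discards counts, and the spread between draws was not measured. The cause of these shifts was not tested. The difference of the 20S to 19S ratio kept its sign under each alternative, all of which were added after seeing the data. Depth limits Psma8 and Psmb11, which could not be tested.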
